A study of Mus musculus with 24 samples.

Results

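The regions described here are the 500 widest accessible domains of mouse B-cell progenitors, out of 117987 accessible regions. ATAC-seq marks DNA that a transposase can reach. Bone marrow cells of WT mice and of Mki67-/- mice, mutant for the gene of Ki-67, found in the nuclei of cycling cells, were sorted as pre-pro-B, pro-B or small pre-B cells, and each of the 6 groups of genotype and stage had 4 libraries. The labels give no age, sex or strain and do not say if each library stands for its own mouse, so the p-values here measure spread among libraries, which may be technical. Each library came with its own list of peaks. Peaks that overlapped within a library were merged, all peaks that overlapped across the 24 libraries made up 159326 regions on chromosomes 1 to 19 and X, and 117987 of these were kept because at least 2 libraries of 1 group held a peak. The 500 of greatest width became the domains. Their widths ran from 2091 to 3789 bp with a median of 2275 bp, against a median of 573 bp over all regions kept, and 17 were wider than 3 kb.

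An open region of ordinary width is usually a promoter or an enhancer, where bound factors displace a nucleosome or a few. Broad open stretches are known from promoters rich in CpG dinucleotides and from genes that respond quickly to signals, whose start sites are kept free of nucleosomes over a longer span. In the bone marrow, B-cell progenitors pass from the pre-pro-B stage, when commitment to the lineage is beginning, through the dividing pro-B stage, when the heavy chain gene is joined, to the resting small pre-B stage, when the light chain gene is joined. In bulk samples such as these, a shorter covered length can come from fewer cells with open DNA or from less access per cell, and these cannot be told apart.

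The promoters of 6 domains on which the results turn are printed first, each from 250 bases before to 30 bases after the start of the transcript. Jun and Cdk6 stand for the widest domains, Btg2 and Cxcr4 for genes that respond to signals, Bcor for the domain with the smallest adjusted p among those that fell between pro-B and small pre-B cells, and Fam43a for a difference between genotypes. The sequences are those of RefSeq on GRCm38.p6, the assembly also called mm10, written 5′ to 3′ on the strand of the gene. Capitals mark matches to any of 6 motifs on either strand: the GC box as GGGCGG, the CCAAT box as CCAAT, the TATA box as TATAAA, the cyclic AMP response element TGACGTCA, the AP-1 site TGAGTCA and the ETS core CCGGAA.
Jun, chr4:95052193-95052472, minus strand: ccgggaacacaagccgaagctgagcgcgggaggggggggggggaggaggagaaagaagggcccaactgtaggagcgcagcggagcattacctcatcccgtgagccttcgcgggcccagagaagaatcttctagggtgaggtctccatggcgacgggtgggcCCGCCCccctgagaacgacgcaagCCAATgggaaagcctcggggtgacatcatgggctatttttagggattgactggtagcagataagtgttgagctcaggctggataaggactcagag
Cdk6, chr5:3343643-3343922, plus strand: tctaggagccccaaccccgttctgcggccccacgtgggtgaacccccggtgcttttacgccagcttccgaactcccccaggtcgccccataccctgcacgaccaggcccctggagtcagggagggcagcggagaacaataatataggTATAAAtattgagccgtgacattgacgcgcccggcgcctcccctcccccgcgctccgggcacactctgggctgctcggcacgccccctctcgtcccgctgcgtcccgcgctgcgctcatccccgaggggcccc
Btg2, chr1:134079126-134079405, minus strand: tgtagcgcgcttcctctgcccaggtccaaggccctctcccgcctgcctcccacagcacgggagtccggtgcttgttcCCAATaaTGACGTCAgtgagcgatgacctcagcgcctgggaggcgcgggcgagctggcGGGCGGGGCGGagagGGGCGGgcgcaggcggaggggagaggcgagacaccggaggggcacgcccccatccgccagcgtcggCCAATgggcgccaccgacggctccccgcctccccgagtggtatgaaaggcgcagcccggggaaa
Cxcr4, chr1:128592270-128592549, minus strand: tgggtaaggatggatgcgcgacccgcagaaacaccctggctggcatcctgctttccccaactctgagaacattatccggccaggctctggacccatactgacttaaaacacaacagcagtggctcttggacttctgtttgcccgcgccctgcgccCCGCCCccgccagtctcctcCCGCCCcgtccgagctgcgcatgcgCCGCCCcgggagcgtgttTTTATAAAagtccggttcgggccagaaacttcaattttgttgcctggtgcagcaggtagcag
Bcor, chrX:12160317-12160596, minus strand: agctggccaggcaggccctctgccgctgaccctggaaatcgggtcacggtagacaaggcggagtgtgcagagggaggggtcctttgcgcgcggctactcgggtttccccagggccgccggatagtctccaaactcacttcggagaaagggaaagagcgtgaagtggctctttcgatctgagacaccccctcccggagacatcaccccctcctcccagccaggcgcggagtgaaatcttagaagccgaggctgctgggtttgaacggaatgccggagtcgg
Fam43a, chr16:30599473-30599752, plus strand: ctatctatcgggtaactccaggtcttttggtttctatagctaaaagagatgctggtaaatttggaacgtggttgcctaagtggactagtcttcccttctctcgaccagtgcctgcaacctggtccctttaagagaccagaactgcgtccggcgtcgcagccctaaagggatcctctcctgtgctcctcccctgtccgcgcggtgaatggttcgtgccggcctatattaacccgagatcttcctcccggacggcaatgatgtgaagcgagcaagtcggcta

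The Btg2 promoter held 3 GC boxes, 2 CCAAT boxes and 1 cyclic AMP response element. The Cxcr4 promoter held 3 GC boxes and 2 TATA matches, which overlap on opposite strands. Jun had 1 GC box and 1 CCAAT box, Cdk6 had 1 TATA match, and Bcor and Fam43a had none of these letters in the printed window. The domain around the Jun start reached 1296 bp upstream and 2198 bp downstream of it. The Bcor domain was more one-sided, with 343 bp upstream and 2092 bp downstream, and so was that of Fam43a, with 388 and 2162 bp. The Cdk6 domain lay mainly upstream, with 2819 bp before the start and 969 bp after it.

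Libraries held 54387 to 88946 merged peaks, which covered 21.7 to 53.7 Mb, and their background coverage, the only measure of depth in these files, lay between 1.86 and 5.3. Of the WT pre-pro-B libraries, replicate 2 had the lowest total, 39.3 Mb, and the lowest coverage, 2.52, and it enters the genotype results below. Doubted for their peak number or coverage were 3 libraries. They were replicate 4 of Mki67-/- pre-pro-B cells and the small pre-B libraries numbered 1, from WT and from Mki67-/- mice. The WT one had the most peaks of its group, 85621, and its coverage of 2.87 lay within that of its group. All 30 early B-lineage genes of a marker list had a peak over the gene or within 10 kb in every library. Of 20 T, NK and innate lymphoid genes, 20 had one in every pre-pro-B library and 16 to 19 in the later ones. Of 20 myeloid and dendritic genes, 20 had one in every pre-pro-B library and 16 to 20 later, and of 15 erythroid and megakaryocyte genes 12 to 13 had one at any stage. The T, NK and innate lymphoid and the myeloid lists thus moved with the stage, and their part in the stage results was not tested. Over the Mki67 gene itself, between 1 and 4 peaks were called in each library. The deleted part of the gene is not given in the labels, so these peaks check nothing, and none of the 500 domains lies there.

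Width was a property of the union of libraries, and it was set mostly by the pre-pro-B stage. Pre-pro-B libraries reached the outer edge at 74.4% of the domain edges, pro-B libraries at 17.6% and small pre-B libraries at 11.8%, with ties counted for each stage. Over all regions kept, pre-pro-B libraries reached 61.9% of the edges. WT libraries reached 72.6% and Mki67-/- libraries 35.8% of the domain edges. In 389 of 500 domains, at least 1 library covered 90% or more of the width on its own. The stretch covered in at least 12 of the 24 libraries had a median of 1464 bp, or 62.7% of the width, and 238 of the 500 domains were also among the 500 regions with the longest such stretch. These values chose the domains and are given as a description. At the limit of the choice, the last domains inside it were those within Crybg1 (chr10:44002612-44004702) and Ttc7 (chr17:87314629-87316719), both 2091 bp wide, and the first regions outside it were at Galnt6, 2090 bp wide, and Rbpms2, 2089 bp wide.

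The widest domain, 3789 bp at chr5:3341074-3344862, lay at Cdk6, which encodes a cyclin-dependent kinase of the G1 phase, and overlapped the long noncoding RNA gene Gm36470. The Cdk6 domain had 3765, 3022, 3762 and 3706 covered bp in the 4 WT pre-pro-B libraries, against 3412, 3522, 3149 and 2471 in the 4 Mki67-/- ones. At the pro-B stage WT libraries had 2868, 2483, 2408 and 2895 bp and Mki67-/- libraries 2767, 2430, 2776 and 2919. Small pre-B libraries covered 2098, 1966, 1798 and 2314 bp (WT) and 1918, 1787, 2004 and 2326 bp (Mki67-/-). In WT pre-pro-B cells, 3 of 4 libraries held the domain as 1 unbroken peak, and replicate 2 was the low one. Every small pre-B library lay below every pro-B library, and the pro-B libraries overlapped the lower end of the Mki67-/- pre-pro-B libraries. The other domains among the 10 widest, in order, were a region nearest Esp38 and regions at Jade2, a PHD-finger protein, Kdm6b, a demethylase of histone H3 lysine 27, Jun, an AP-1 subunit, Gfra1, a receptor for glial neurotrophic factors, Jund, another AP-1 subunit, Mocos, which activates molybdenum enzymes, Arhgef2 and Ubtf, a factor for transcription of ribosomal RNA genes.

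The region nearest Esp38 (chr17:39843023-39846797, 3775 bp) behaved differently from the other wide domains. It overlaps Rn18s-rs5, a copy of ribosomal RNA sequence, and was 1 unbroken peak in each of the 24 libraries. It was covered over 3703, 3703, 3720 and 3703 bp (WT) and 3760, 3700, 3703 and 3761 bp (Mki67-/-) in pre-pro-B libraries. Values for pro-B libraries were 3698, 3693, 3695 and 3700 bp (WT) and 3698, 3694, 3698 and 3698 bp (Mki67-/-). At the small pre-B stage the WT values were 3694, 3696, 3696 and 3696 bp and the Mki67-/- values 3707, 3696, 3694 and 3709 bp. The lowest and highest library differed by less than 100 bp, and the groups overlapped. Reads from the many ribosomal RNA copies may have been placed there, so its level is uncertain, and the same holds for the domains at Gm20783, nearest Vmn2r129, at Crlf2, nearest Scaf8, within Sfi1 and at the histone genes, which have near-identical copies. The 10 domains of greatest median covered length were those nearest Esp38 with 3698 bp, at Gm20783 with 3025, Cdk6 with 2625, Jund with 2621.5, Jade2 with 2576, Nr3c1 with 2575.5, Kdm6b with 2330, Cxxc5 with 2309, Setd7 with 2268.5 and Tagln2 with 2262 bp. Nr3c1 encodes the glucocorticoid receptor, Cxxc5 a zinc-finger protein that binds unmethylated CpG, Setd7 a lysine methyltransferase and Tagln2 an actin-binding protein.

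Within the Nr3c1 gene, the domain at chr18:39488908-39491781 was covered over most of its width at every stage. It had pre-pro-B values of 2851, 2496, 2837 and 2837 bp among WT libraries and of 2762, 2782, 2604 and 2397 bp among Mki67-/- libraries. The pro-B libraries of WT mice gave 2571, 2519, 2653 and 2630 bp, those of Mki67-/- mice 2501, 2394, 2770 and 2667 bp. WT small pre-B libraries had 2507, 2498, 2348 and 2580 bp, Mki67-/- small pre-B libraries 2393, 2596, 2327 and 2395 bp. The percent covered was 95.9% in WT pre-pro-B, 90.2% in WT pro-B and 86.4% in WT small pre-B cells, and neither step passed the test.

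Peaks covered most of the domains in pre-pro-B cells and a smaller part of them at the later stages. Of the summed width of 1176.09 kb, WT pre-pro-B libraries covered 985.2 ± 105.0 kb (SD, n = 4), from 831.3 to 1055 kb. Mki67-/- pre-pro-B libraries covered 901.2 ± 89.7 kb (n = 4), from 774.7 to 970.4 kb. The genotypes overlapped, and the lowest library of each was the one of lowest coverage in its group. WT pro-B libraries covered 671.0 ± 12.5 kb and Mki67-/- ones 689.1 ± 53.0 kb (n = 4 each). In small pre-B cells the lengths were 619.5 ± 31.8 kb in WT and 613.4 ± 51.3 kb in Mki67-/- libraries (n = 4 each). Every pre-pro-B library lay above every pro-B library, and pro-B and small pre-B libraries overlapped. The pro-B length was 0.721 times the pre-pro-B length, over both genotypes, and the small pre-B length 0.906 times the pro-B length.

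Total covered length moved with these values. The domains held 2.02 ± 0.0679% of all covered bases among WT and 2.12 ± 0.162% among Mki67-/- pre-pro-B libraries, then 2.24 ± 0.0934% and 2.25 ± 0.0544% at the pro-B stage, and finally 2.33 ± 0.163% and 2.39 ± 0.100% (SD, n = 4 each). As a share of the total, the pro-B value was thus 1.085 times the pre-pro-B value, the reverse of the order in kb. No test was run on these sums, because the domains were chosen from the same lists.

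**Figure D1:**
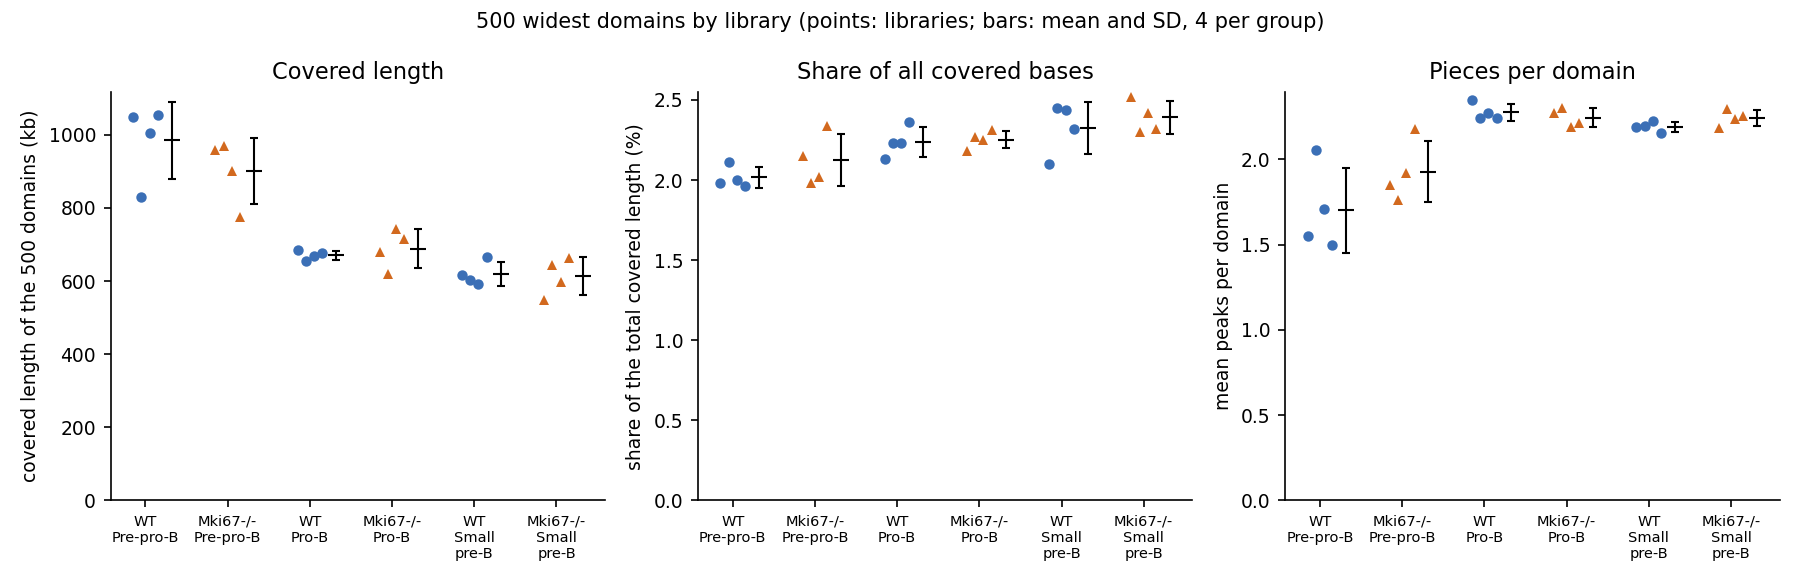
The panels plot, for each of the 24 libraries, the covered length of the 500 domains in kb, its share of all covered bases in percent and the mean number of peaks per domain; points are libraries, and the black mark gives the mean and SD of the 4 libraries of a group. Covered length is highest in both pre-pro-B groups, from 774.7 to 1055 kb, while the share of covered bases is lowest there.

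The shorter covered length at later stages came with more pieces. WT pre-pro-B libraries held a domain in 1.70 ± 0.250 peaks on average, against 2.28 ± 0.0515 in WT pro-B and 2.19 ± 0.0287 in WT small pre-B libraries (SD, n = 4 each). In Mki67-/- libraries the means were 1.93 ± 0.179, 2.24 ± 0.0537 and 2.24 ± 0.0446. A single peak held 47.6% of the domains among WT and 34.55% among Mki67-/- pre-pro-B cells, and 22.65 to 25.45% in the other groups. The longest piece of a domain had a median of 1683 bp among WT and 1322.5 bp among Mki67-/- pre-pro-B libraries and of 803.1 to 914.5 bp in the other groups. Gaps between the pieces of a domain had a median of 116 bp among WT and 125 bp among Mki67-/- pre-pro-B libraries, 196.5 and 187 bp at the pro-B stage and 195 and 204 bp at the last stage. In regions outside the 500 that were also split, the medians were 81 and 87 bp, 129.75 and 120.5 bp, and 130 and 131 bp. Gaps were thus longer in the domains than elsewhere in every group, as a description with no test. A wide region has more room for a long gap, so this was in part fixed by the choice.

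Per domain, the median percent covered was 86.7% among WT and 79.2% among Mki67-/- pre-pro-B, 57.3 and 59.0% at the pro-B stage, and 53.9 and 52.9% at the small pre-B stage. Regions found in all 24 libraries, 26804 in number, had medians of 86.5 and 79.5%, 62.2 and 63.6%, and 59.7 and 59.1%. The domains, most of which are among these regions, thus had similar medians in pre-pro-B cells and lay some points lower afterwards. Pre-pro-B libraries set more of the edges in the domains than over all regions. The lower later values were thus in part fixed by the choice. In WT pre-pro-B cells 163 domains were covered over 90% or more of their width, in Mki67-/- pre-pro-B cells 61, and in the other groups 1 to 5. All 500 had a peak in at least 16 libraries, and 481 had one in all 24.

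The domains lay mainly at genes. An end of a protein-coding gene fell inside 312 of 500 (62.4%), 138 lay within a gene and 50 between genes. Among all regions kept, 9.68% held a gene end, and among regions found in all 24 libraries 33.6% did. A transcription start listed by RefSeq lay in 59.4% of the domains, in 8.73% of all regions kept and in 31.3% of regions found in all libraries. More than 1 start lay in 16.6% of the domains and in 6.01% of regions found in all libraries. The part of width itself in these shares was not tested.

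Around the start, the domains reached further than other regions on both sides. This follows in large part from their choice by width, as does higher coverage far from the start, and both are given as a description. In the 214 domains with a single start, the median reach was 866.5 bp upstream and 1457.5 bp downstream, and 73.4% of them reached further downstream. In 8343 other regions with a single start, the medians were 481 and 623 bp, and 63.3% reached further downstream. At the start itself, 93.5 ± 2.26% of the 214 starts were covered in WT pre-pro-B and 88.3 ± 0.661% in WT small pre-B libraries (SD, n = 4 each). At 1000 bp downstream the coverage was 68.5 ± 10.1% among WT and 60.6 ± 7.24% among Mki67-/- pre-pro-B libraries, 36.4 ± 2.19 and 39.1 ± 3.71% at the pro-B stage, and 32.6 ± 2.39 and 32.6 ± 4.80% at the small pre-B stage. At 500 bp upstream it was 67.2 ± 6.50% in WT pre-pro-B, 45.2 ± 1.76% in WT pro-B and 41.0 ± 2.33% in WT small pre-B libraries. Most starts were covered at every stage, and on both sides of them coverage was lower at the later stages. At 1000 bp downstream, 6565 starts in other regions found in all libraries were covered in 14.7% of cases in WT pre-pro-B, 6.60% in WT pro-B and 5.61% in WT small pre-B libraries. At 1000 bp upstream, the domains were covered at 32.8% of the starts in WT pre-pro-B and 19.2% in WT pro-B libraries, and the other regions at 6.44 and 4.04%.

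**Figure D2:**
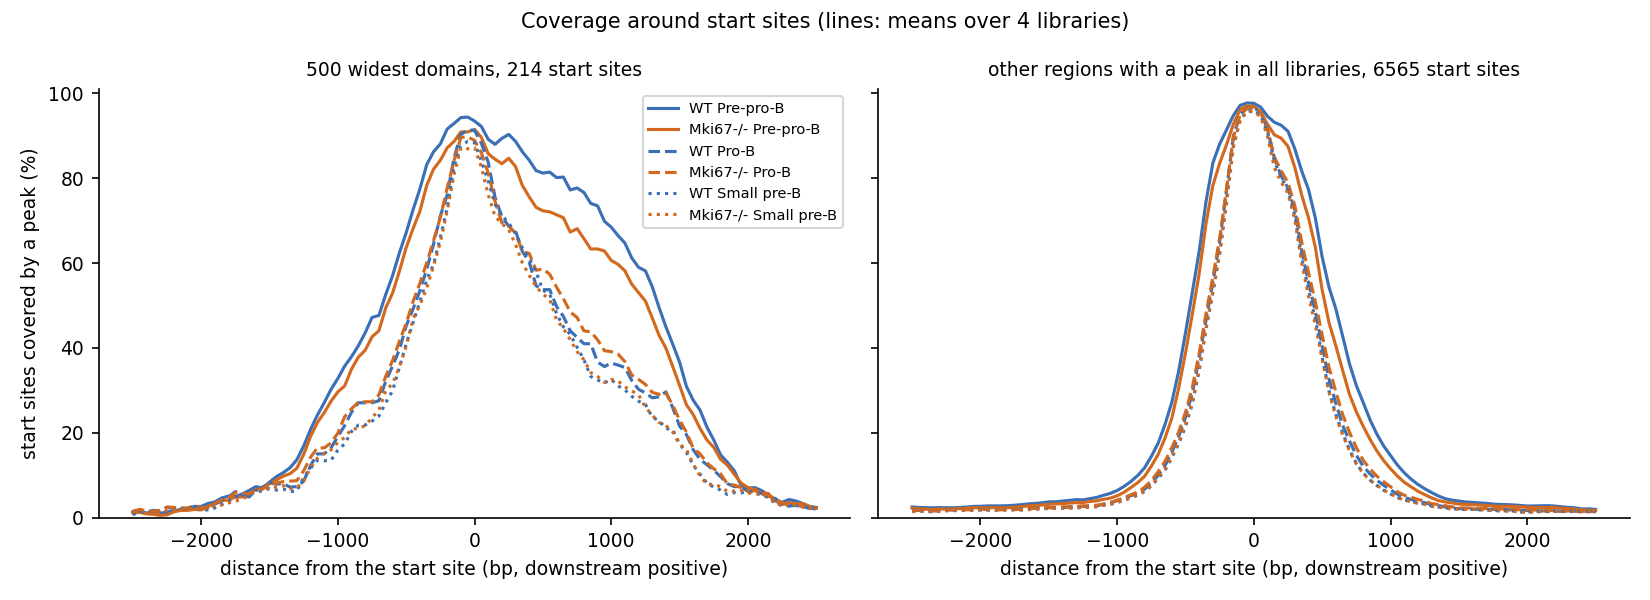
Lines give the percent of start sites covered by a peak (y axis) against the distance from the start in bp (x axis, downstream positive), as means over the 4 libraries of each group, for 214 domains with a single start on the left and 6565 other regions found in all libraries on the right. The lines meet near the start and part on both sides of it, and at 1000 bp downstream WT pre-pro-B libraries stand at 68.5% and WT small pre-B libraries at 32.6% in the left panel.

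The start sites in the domains were rich in CpG. From 250 bases before to 50 bases after the start, the median number of CpG was 27 for 411 starts in the domains, 21 for 12061 starts in other regions kept and 13 for all 21045 starts of protein-coding genes. A GC box lay in 77.9% of the first set, 66.1% of the second and 46.7% of all. CCAAT was found in 29.9, 37.9 and 38.5% in the same order, TATAAA in 8.76, 6.27 and 12.7%, and the ETS core in 18%, 28.4% and 18.9%. The cyclic AMP response element occurred in 1.46, 3.31 and 2.26%, and the AP-1 site in 2.19, 3.14 and 4.69%. GC boxes were thus more frequent and CCAAT and ETS matches less frequent in the domains than in other open starts. The set can hold several starts of 1 gene, and a match is no proof of binding.

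Width was not the same as strength. The authors' −log10 q was used as a rank within each library, and each region took the rank of its strongest peak. A region split into several peaks can rank better for that reason alone. By this measure the domains had a median rank in the top 16.7% of the list, against the top 23.03% for regions found in all 24 libraries. Of the domains, 148 (29.6%) stood in the top 10%, against 23.4% of those regions. The authors' fold enrichment, taken at the highest summit of a region, had a median of 11.6 in the domains and 14.3 in those regions. On the chromosomes, 35 domains lay on chromosome 17, which is 1.52 times its share of all regions kept, and 13 on chromosome 9, which is 0.4705 times its share. The median distance to the next domain was 981931 bp, and 61 domains lay within 100 kb of another. The 500 domains carried the names of 483 genes. Bcor and Cxxc5 each named 3 of them, and 13 other genes named 2 each, among them Satb1, Bach2, Cdkn1b, which encodes a cyclin-dependent kinase inhibitor, and Foxk1, a forkhead factor.

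Of the 10 gene lists examined, that of genes that respond to signals had the most separate domains. Of 30 such genes, 8 had a domain inside or within 10 kb, namely Jun, Jund, Btg2, Cxcr4, Ier5, Zfp36l2, Btg1 and Gadd45b, whereas 644 of all 21631 protein-coding genes (2.98%) had one. Of 20 replication-dependent histone genes, 8 had one, but these share 3 regions, at H2ac20 and H2bc21 on chromosome 3, at H2bc4 and H2ac6 on chromosome 13, and at H2bc3 on chromosome 13 with H2ac4, H1f2 and H4c2 nearby. Stem and multipotent progenitor genes had 3 of 20, with a pair of domains at Satb1, 1 at Runx1 and 1 at Etv6. Early B-lineage genes had 2 of 30, with a pair at Bach2, a repressor of later B-cell fates, and 1 near Sox4. T, NK and innate lymphoid genes had 1 of 20 (Notch1), myeloid and dendritic genes 1 of 20 (Runx2) and housekeeping genes 1 of 20 (Hsp90ab1). None of 15 erythroid and megakaryocyte genes, 20 cell division and replication genes or 24 Hox and other developmental genes had one. The lists describe the domains, and no test was made of them.

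The question of the stage comparison is which domains narrow or widen as progenitors mature. It used the 40000 peaks of highest −log10 q in each library, because the stages differ in the length of their deposited lists, and the percent of each region covered was fitted with limma over all 24 libraries and all regions with a peak in at least 4 of them. In the stage results, covered lengths in bp come from the deposited lists and differences in percentage points from the strongest peaks, unless the deposited lists are named. From pre-pro-B to pro-B, 351 of the 494 domains tested were lower at an adjusted p under 0.05 (71.1%), where 55.5% of all regions tested were lower, and 36 were higher (7.29%), where 24.7% of all were. The median difference was −19.7 percentage points in the domains and −16.7 over all regions tested. Since pre-pro-B libraries set most of the domain edges, the direction of this step was in part fixed by the choice, and nothing is read from these shares. Among the domains with a gene end, 72.0% were lower, and 72.2% of all regions with a gene end were. Within genes the shares were 68.4% of the domains and 52.0% of all, and between genes 72.0% and 52.2%.

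Domains chosen in 1 genotype and tested in the other gave the comparison without the libraries that chose them. That choice still used all 3 stages of the choosing genotype, pre-pro-B included. The direction of this step could thus still be fixed in part by the choice. Of 496 domains chosen in WT and tested in Mki67-/- libraries, 258 were lower and 26 higher, where 42.3% of all regions were lower and 21.6% higher. Of 498 chosen in Mki67-/- and tested in WT libraries, 359 were lower and 18 higher, where 50.6% of all were lower and 20.5% higher. In the deposited lists 424 of 500 were lower (57.3% of all regions) and 11 higher (23.9%). With the total covered length of each library as a covariate, 64 were lower (22.1% of all regions) and 70 higher (22.8%). Total covered length thus moved with the stage, and their parts cannot be told apart. Without the 3 doubted libraries 366 were lower and 34 higher.

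All 8 signal-response domains were lower in pro-B than in pre-pro-B cells in the strongest peaks, where 71.1% of the domains and 55.5% of all regions tested were, a direction fixed in part by the choice of the domains. In the deposited lists 7 of them passed, the exception being Btg2. With the strongest-peak length as a covariate limma called 0 of the 8, with 0 at an unadjusted p under 0.05. The median was then 2.94 percentage points. The Jun domain had 2998, 2296, 3270 and 3476 covered bp in the 4 WT pre-pro-B libraries, against 2958, 3464, 3027 and 2732 in the 4 Mki67-/- ones. WT pro-B libraries followed with 1658, 1603, 1879 and 1865 bp, Mki67-/- pro-B libraries with 1956, 1707, 2305 and 2234 bp. For small pre-B libraries they were 1536, 1502, 1522 and 1772 bp (WT) and 1674, 1647, 1488 and 1730 bp (Mki67-/-). Pre-pro-B libraries stood above the rest, apart from WT replicate 2, which overlapped the highest Mki67-/- pro-B library. The difference was -31.2 ± 4.39 percentage points (SE, adjusted p = 1.61e-06), or 1.32 with the covariate (adjusted p = 0.905), and the step from pro-B to small pre-B did not pass (adjusted p = 0.198). The domain also overlaps Junos, a noncoding RNA gene next to the Jun start, and reads of an open start shared by both cannot be assigned to either.

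Jund, another AP-1 subunit, took a different course (chr8:70698294-70701754). Its domain was covered over 2744, 2320, 2917 and 3010 bp (WT) and 2953, 2729, 2614 and 2328 bp (Mki67-/-) in pre-pro-B libraries. At the pro-B stage WT libraries had 1812, 1853, 2106 and 2446 bp and Mki67-/- libraries 2193, 2086, 2313 and 2629. Small pre-B libraries covered 2544, 2936, 3094 and 3238 bp (WT) and 2411, 2684, 2725 and 3009 bp (Mki67-/-). It was lower in pro-B than in pre-pro-B cells by 12.4 ± 3.41 percentage points (SE, adjusted p = 0.00236) and higher again in small pre-B cells by 16.8 ± 3.41 (adjusted p = 3.66e-04). With the covariate the steps were 5.57 (adjusted p = 0.576) and 20.5 (adjusted p = 2.74e-05). The small pre-B and pro-B libraries overlapped in part, and the small pre-B values reached those of pre-pro-B cells.

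Btg2, which restrains proliferation (chr1:134077282-134080110), fell late. Its domain had pre-pro-B values of 2183, 1750, 2290 and 2460 bp among WT libraries and of 2298, 2287, 2268 and 2293 bp among Mki67-/- libraries. Values for pro-B libraries were 1791, 1739, 2112 and 2317 bp (WT) and 2193, 2123, 2607 and 2388 bp (Mki67-/-). At the small pre-B stage the WT values were 1427, 1661, 1575 and 1808 bp and the Mki67-/- values 1594, 1320, 1479 and 1693 bp. At the first step it was lower in the strongest lists (adjusted p = 0.0173) and did not pass in the deposited ones (adjusted p = 0.549). Every small pre-B library except WT replicate 4 lay below every pro-B library, and the fall from pro-B to small pre-B was 23.4 ± 4.75 percentage points (SE, adjusted p = 3.72e-04). Cxcr4, the receptor for the chemokine that holds progenitors in the marrow (chr1:128590719-128593322), was narrower from the pro-B stage on. Its domain had 2433, 1806, 2227 and 2383 covered bp in the 4 WT pre-pro-B libraries, against 2412, 2239, 2014 and 1695 in the 4 Mki67-/- ones. The pro-B libraries of WT mice gave 1602, 1581, 1574 and 1614 bp, those of Mki67-/- mice 1619, 1558, 1676 and 1643 bp. WT small pre-B libraries had 1635, 1578, 1603 and 1636 bp, Mki67-/- small pre-B libraries 1576, 1600, 1533 and 1602 bp. All pre-pro-B libraries lay above all later ones, and the pro-B and small pre-B libraries overlapped closely. It fell by 18.6 ± 3.58 percentage points (SE, adjusted p = 7.98e-05) at the first step, a call lost with the covariate (8.87, adjusted p = 0.215).

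The other signal-response domains at the first step ranged from -14.4 percentage points at Zfp36l2 to -25.6 at Gadd45b, with -22.9 at Btg1 and -19.5 at Ier5. Btg1 had -42.0 and Ier5 -11.2 in the deposited lists. Zfp36l2 encodes an RNA-binding protein that promotes decay of messenger RNA, Gadd45b a stress-induced regulator, and Btg1 a relative of Btg2. At the second step of these 8, Jund was called higher and Btg2 lower, and the other 6 did not pass. For the early B-lineage list the 3 domains were lower at the first step, as were 55.5% of all regions tested. With the covariate 1 of the 3, at Bach2, was lower and 1, near Sox4, was higher. At Bach2 the domain at chr4:32248876-32251382 had 91.4 ± 9.20% covered in WT pre-pro-B, 49.1 ± 4.71% in WT pro-B and 36.8 ± 1.72% in WT small pre-B libraries (SD, n = 4 each), and it was lower at both steps. Its neighbour at chr4:32238123-32240393, which holds an end of the gene, was lower at the first step and did not pass at the second (adjusted p = 0.469). Of the 4 stem and progenitor domains, 2 were lower at the first step, at Runx1 and Etv6, and neither of those at Satb1 passed in the strongest lists. The Notch1 domain was lower at the first step, the Runx2 domain at the second, and that of Hsp90ab1 passed at neither. With the covariate those at Runx1, Etv6 and Notch1 did not pass at the first step, and that of Runx2 passed at the second.

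The 3 histone domains did not move together. Those at H2ac20 and H2bc4 were lower in pro-B than in pre-pro-B cells, with -16.2 and -16.6 percentage points, where the deposited lists gave -9.81 and -16.6, and neither passed with the covariate. That at H2bc3 (chr13:23745145-23747263) was higher by 8.04 ± 2.08 (SE, adjusted p = 0.00145), also with the covariate, and lower in small pre-B cells by 12.1 ± 2.08 (adjusted p = 5.81e-05). The second step gave the same direction at H2ac20 and H2bc4, where it did not pass in the strongest lists (adjusted p = 0.0944 and 0.461).

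**Figure D3:**
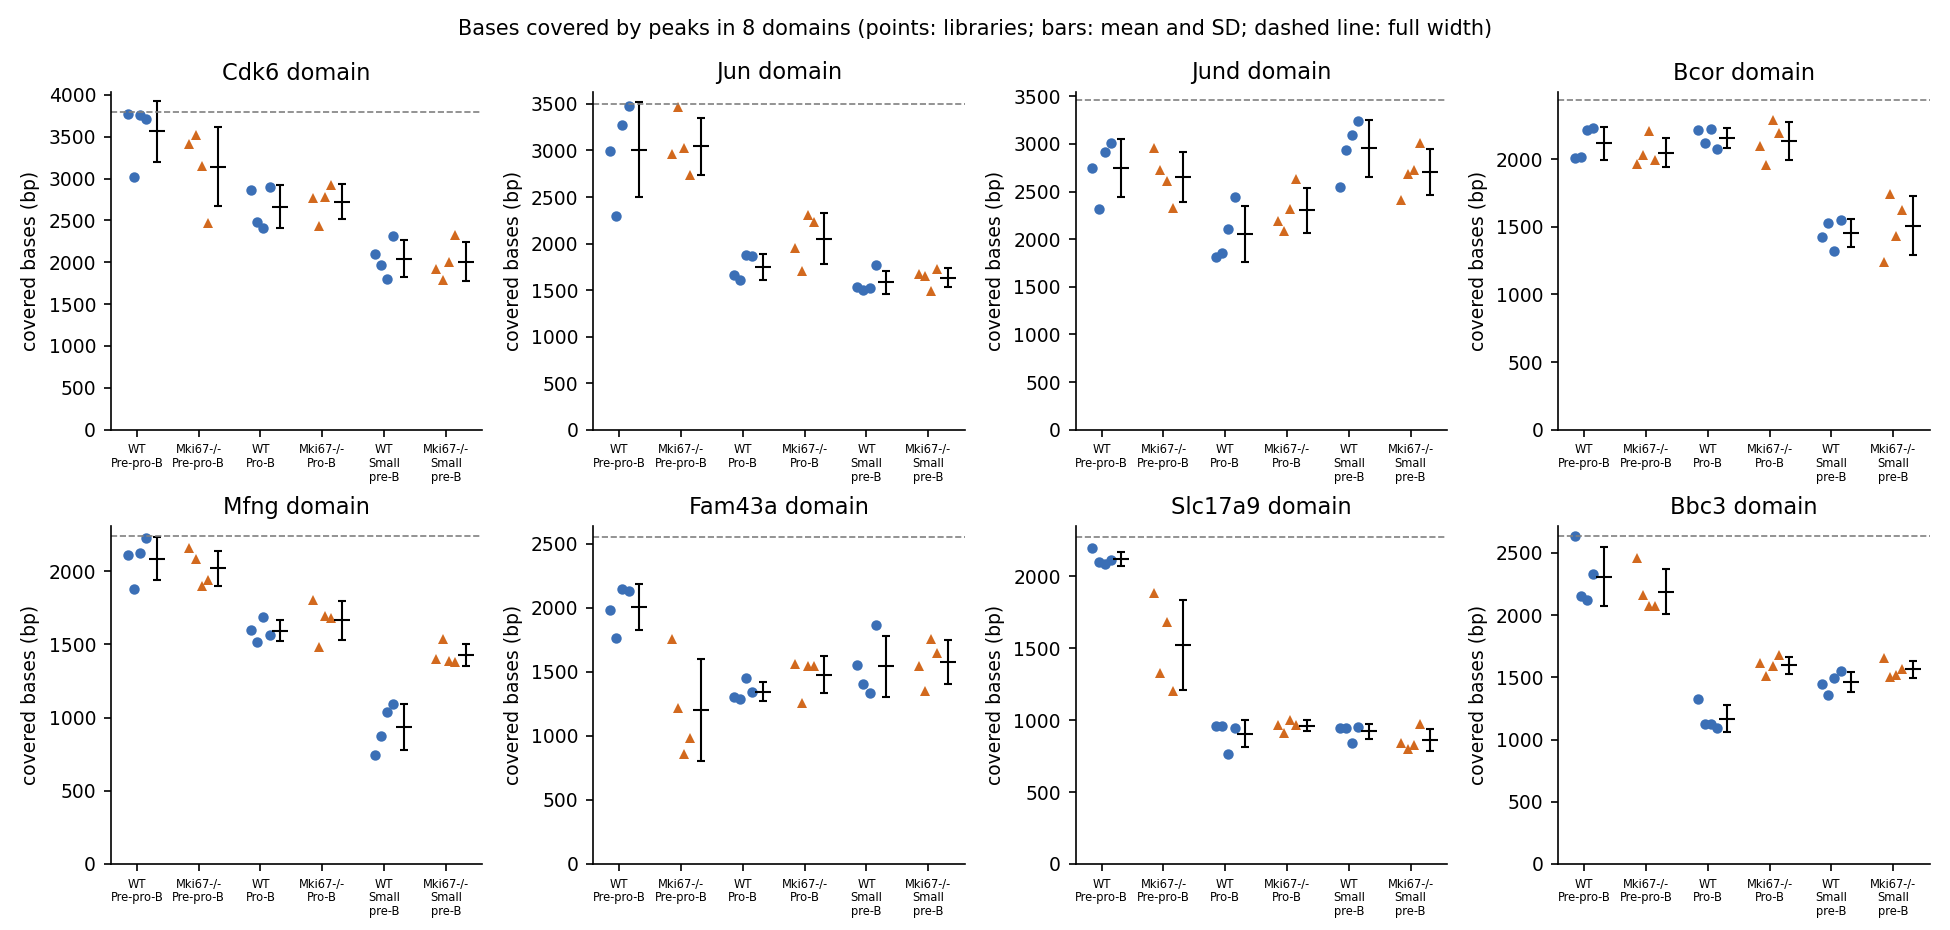
Each panel plots the bases covered by peaks (y axis, bp) in the domain of 1 gene for the 4 libraries of each of the 6 groups; points are libraries, the black mark gives the mean and SD, and the dashed line is the full width of the domain. Jun and Cdk6 are longest in pre-pro-B libraries, Jund returns in small pre-B libraries, Bcor is short at the small pre-B stage, and Fam43a, Slc17a9, Bbc3 and Mfng are shown for their genotype differences.

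The domains called lower from pre-pro-B to pro-B with the smallest p-values were those nearest Vmn2r129 with -83.9 percentage points, at Trerf1 with -68.1, within Fam178b with -45.8, within Tbpl1 with -44.9, within N4bp2l1 with -66.8, at Crlf2 with -13.8, at Slc35c2 with -55.4, within Pgs1 with -62.4, at Pik3r5 with -36.1 and within Ttc7 with -55.9. All 10 were also called lower in the deposited lists, with smaller differences of -43.6 at Trerf1, -30.7 at N4bp2l1, -41.8 at Pgs1 and -37.0 at Ttc7, and with the covariate. Trerf1, a zinc-finger transcriptional regulator, has a domain that holds a gene end (chr17:47139475-47141605). In the deposited lists it was covered over 2034, 1934, 1958 and 2124 bp (WT) and 1977, 1789, 1887 and 1631 bp (Mki67-/-) in pre-pro-B libraries. WT pro-B libraries followed with 1004, 849, 1171 and 879 bp, Mki67-/- pro-B libraries with 1011, 682, 1035 and 1267 bp. For small pre-B libraries they were 732, 742, 891 and 1024 bp (WT) and 289, 694, 742 and 903 bp (Mki67-/-). No pre-pro-B library overlapped any later one, and the lowest of all was Mki67-/- small pre-B replicate 1, which is among the doubted libraries. Pik3r5 encodes a subunit of the phosphoinositide kinase used by G-protein receptors, and Crlf2 the receptor subunit for thymic stromal lymphopoietin.

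The 36 domains called higher in pro-B than in pre-pro-B cells depended on the list. Of these, 12 had the same direction in the deposited lists and 8 of the 12 passed there, at Acp5, Pip5k1b, Aff1, Gng4, Rab6b, Cdc42ep3, H2bc3 and Auts2, while 24 had the opposite direction and 13 of the 24 passed. Among the 10 of smallest p, those at Plcd3, Ccdc160, Chd4, Glis3, Pde4c and Plekha7 turned, for example Glis3 with 27.0 percentage points in the strongest and -44.5 in the deposited lists. Acp5, a phosphatase of lysosomes, and Gng4, a G-protein subunit, did not. The Auts2 domain passed in both lists but not with the covariate (adjusted p = 0.143 by limma). Its WT libraries overlapped, with 1653, 407, 1167 and 1464 bp in pre-pro-B and 1455, 1165, 843 and 1204 bp in pro-B cells. Its Mki67-/- libraries had 0, 155, 396 and 0 bp in pre-pro-B and 961, 1091, 1613 and 1235 bp in pro-B cells. The domain nearest Acp5 (chr9:22142917-22145109) had pre-pro-B values of 854, 649, 850 and 942 bp among WT libraries and of 838, 828, 651 and 529 bp among Mki67-/- libraries. At the pro-B stage WT libraries had 1921, 1749, 1867 and 1644 bp and Mki67-/- libraries 1804, 1498, 1828 and 1956. Small pre-B libraries covered 1560, 1588, 1367 and 1614 bp (WT) and 1589, 1505, 1521 and 1626 bp (Mki67-/-). Every pro-B and small pre-B library lay above every pre-pro-B library. The difference at the first step was 46.3 ± 4.61 percentage points (SE, adjusted p = 1.01e-08).

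Gng4 was similar (chr13:13783703-13785835). Its domain had 587, 418, 819 and 1075 covered bp in the 4 WT pre-pro-B libraries, against 333, 223, 530 and 0 in the 4 Mki67-/- ones. Values for pro-B libraries were 1580, 1491, 1542 and 1566 bp (WT) and 1662, 1500, 1804 and 1623 bp (Mki67-/-). At the small pre-B stage the WT values were 1412, 1738, 1344 and 1687 bp and the Mki67-/- values 1235, 1414, 1558 and 1748 bp. The later libraries lay above all pre-pro-B libraries, and Mki67-/- pre-pro-B replicate 4, another doubted library, was at 0. The first step gave 49.3 ± 6.10 percentage points (SE, adjusted p = 2.74e-07). At Rab6b, a GTPase of Golgi transport, the domain (chr9:103110380-103112845) was highest in pro-B cells, with 24.6 percentage points at the first step (adjusted p = 7.78e-06) and -36.7 at the second (adjusted p = 9.36e-08). Aff1, a scaffold of an elongation complex, had 19.2 and -16.1 at the same steps, with adjusted p of 9.88e-08 and 3.73e-06. These steps share the pro-B libraries, so a high pro-B value enters both.

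From pro-B to small pre-B, fewer domains passed. Of 494 tested, 98 were lower (19.8%), where 23.8% of all regions tested were, and 38 higher (7.69%), where 15.3% of all were, and the median difference was −1.81 percentage points against 0 over all regions. Domains chosen in WT and tested in Mki67-/- libraries gave 48 lower and 13 higher of 496, with 15.8 and 9.77% of all regions. Those chosen in Mki67-/- and tested in WT libraries gave 64 lower and 33 higher of 498, with 18.3 and 12.3% of all. In the deposited lists 134 were lower (25.5% of all regions) and 22 higher (11.9%). With the strongest-peak length as a covariate the counts were 68 lower (20.7% of all) and 96 higher (20.4%).

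The Bcor start-site domain had the smallest p. Bcor encodes a corepressor of a Polycomb complex that works with BCL6, and its domain spans chrX:12158254-12160689. It was covered over 2006, 2012, 2215 and 2231 bp (WT) and 1964, 2028, 2206 and 1993 bp (Mki67-/-) in pre-pro-B libraries. The pro-B libraries of WT mice gave 2217, 2117, 2222 and 2071 bp, those of Mki67-/- mice 2094, 1955, 2286 and 2190 bp. WT small pre-B libraries had 1422, 1526, 1321 and 1551 bp, Mki67-/- small pre-B libraries 1242, 1739, 1431 and 1621 bp. All 8 small pre-B libraries lay below all 16 earlier ones, and pre-pro-B and pro-B libraries overlapped. The fall was 34.7 ± 2.08 percentage points in the strongest lists (SE, adjusted p = 6.41e-12) and -27.2 in the deposited lists (adjusted p = 5.24e-08), and the first step did not pass (adjusted p = 0.498). The other 2 Bcor domains, inside the gene at chrX:12079132-12081483 and chrX:12086899-12089130, did not pass at the second step.

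Mfng encodes manic fringe, a glycosyltransferase that modifies Notch receptors (chr15:78771655-78773892). Its domain had pre-pro-B values of 2109, 1881, 2125 and 2228 bp among WT libraries and of 2156, 2084, 1901 and 1939 bp among Mki67-/- libraries. WT pro-B libraries followed with 1601, 1517, 1690 and 1566 bp, Mki67-/- pro-B libraries with 1801, 1481, 1694 and 1682 bp. For small pre-B libraries they were 743, 876, 1036 and 1093 bp (WT) and 1399, 1535, 1389 and 1380 bp (Mki67-/-). WT small pre-B libraries were the lowest of all 24 and overlapped no other group. Over both genotypes it fell by 24.6 ± 2.39 percentage points from pro-B to small pre-B (SE, adjusted p = 2.29e-08). Setd7 held nearly its whole domain open before that stage (chr3:51559597-51561933). It had 2332, 2306, 2318 and 2322 covered bp in the 4 WT pre-pro-B libraries, against 2318, 2332, 2322 and 2299 in the 4 Mki67-/- ones. At the pro-B stage WT libraries had 2243, 2301, 2301 and 2077 bp and Mki67-/- libraries 2230, 2231, 2294 and 2294. Small pre-B libraries covered 1965, 2001, 1792 and 1794 bp (WT) and 1806, 2086, 1808 and 1975 bp (Mki67-/-). Small pre-B libraries lay below the pro-B libraries, apart from Mki67-/- replicate 2, which overlapped WT pro-B replicate 4, and the difference was -15.1 ± 1.96 percentage points (SE, adjusted p = 1.61e-06).

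The other domains called lower with the smallest p were those at Rab6b, nearest Foxk1 with -25.1 percentage points, within Strn4 with -37.4, within Tpcn1 with -22.9, at Mfsd13a with -29.7, nearest Cxxc5 at chr18:35864795-35866901 with -32.4, and at Aff1. All of these were called lower in the deposited lists too, where Cxxc5 had -15.2. At Cxxc5 the 3 domains went different ways. That within the gene (chr18:35829587-35832498) had 1595, 2003, 1802 and 1595 covered bp in WT and 1654, 1867, 1460 and 1611 in Mki67-/- pro-B libraries. In small pre-B libraries it had 2609, 2688, 2388 and 2667 bp in WT and 2397, 2518, 2407 and 2639 in Mki67-/-. All small pre-B libraries lay above all pro-B libraries, and the rise was 33.5 ± 8.92 percentage points (SE, adjusted p = 0.00433). The third, at chr18:35887641-35890132, did not pass in the strongest lists (adjusted p = 0.493). Jade2, among the widest domains, also fell at this step, by 40.6 ± 6.18 (SE, adjusted p = 1.34e-05), against -24.1 in the deposited lists (adjusted p = 0.00205).

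Among the domains called higher in small pre-B cells, those of smallest p lay nearest Uspl1 with 28.8 percentage points, nearest Scaf8 with 18.1, nearest Tex44 with 10.6, at Spaca9 with 28.6, within Ttc7 with 16.6, within Cep85 with 46.0, within Dbndd2 with 18.5, at Jund, nearest Tram1 with 20.9 and at Ccrl2, a chemokine-binding receptor, with 40.3. In the deposited lists the domains at Dbndd2 and Tram1 turned, that at Uspl1 passed with a smaller difference, and those at Spaca9 (2.59), Ttc7 (4.65) and Ccrl2 (0.457) did not pass. The domain within Cep85, which encodes a centrosome protein, was higher in both lists (chr4:134164676-134166861). It was covered over 2119, 1053, 1687 and 1716 bp (WT) and 1761, 1587, 805 and 1034 bp (Mki67-/-) in pre-pro-B libraries. Values for pro-B libraries were 641, 715, 428 and 177 bp (WT) and 516, 223, 420 and 509 bp (Mki67-/-). At the small pre-B stage the WT values were 1699, 1388, 1617 and 1827 bp and the Mki67-/- values 1484, 1300, 1392 and 1523 bp. Every small pre-B library lay above every pro-B library, and the pre-pro-B libraries, from 805 to 2119 bp, lay above the pro-B libraries and overlapped the small pre-B ones. The rise was 46.0 ± 8.77 percentage points (SE, adjusted p = 1.90e-04), with 49.2 in the deposited lists. The Kdm6b domain was called higher in the strongest lists by 16.1, but had -2.43 in the deposited lists (adjusted p = 0.823).

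**Figure D4:**
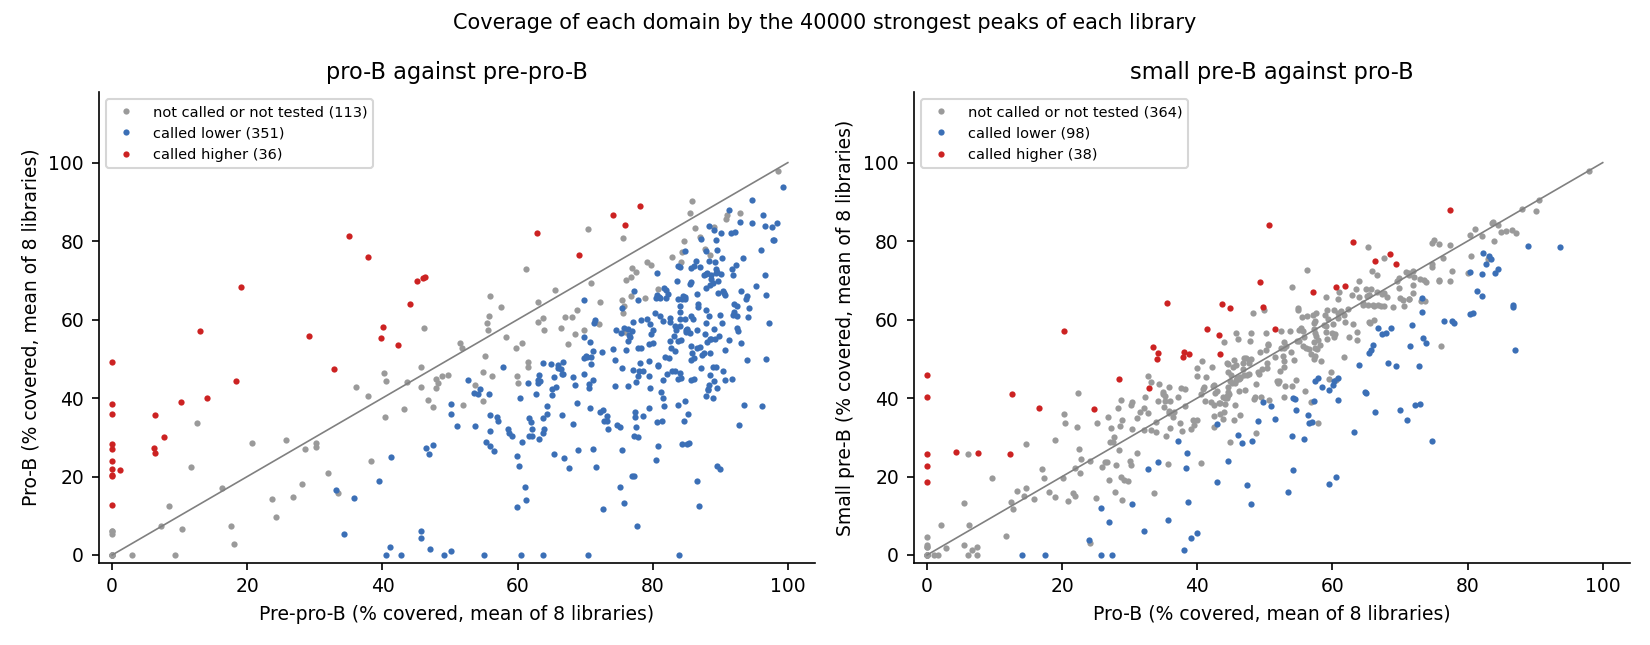
Each point is a domain, with the percent covered by the 40000 strongest peaks as a mean over 8 libraries at the earlier stage (x axis) and the later stage (y axis); colours mark domains called lower or higher by limma, and the line is equality. Most points lie below the line in the left panel (351 lower, 36 higher) and near it in the right panel (98 lower, 38 higher).

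The genotype comparison asks whether loss of Ki-67 changed how far the domains were open. It used the deposited lists, because a change in total length would be lost in lists trimmed to 1 size. The fit gave each region 1 variance for all 6 groups, though their spread differed. The SD of the mean percent covered of the domains was 8.90 (WT) and 7.62 (Mki67-/-) at the pre-pro-B stage. At the pro-B stage it was 1.09 (WT) and 4.51 (Mki67-/-), and at the last stage 2.68 (WT) and 4.36 (Mki67-/-). The SE and p-values of genotype tests within pre-pro-B cells, or against them, can thus be too small. Averaged over the stages, limma called 0 of 500 domains, where 0.826% of all regions tested were higher and 1.15% lower, and 38 domains had an unadjusted p under 0.05. The median difference was −1.71 percentage points in the domains and −2.67 over all regions. Without WT pre-pro-B replicate 2, the call count became 12, and without any other single library it was 0 or 1. Without the 3 doubted libraries it was 0.

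In pre-pro-B cells 5 domains were lower and 0 higher in Mki67-/- than in WT libraries by limma, where 3.91% of all regions tested were lower and 0.269% higher. In value, 470 of the 500 were lower, with a median of −6.00 percentage points against −4.69 over all regions, and 87 had an unadjusted p under 0.05 in either direction. WT libraries set more of the domain edges, so this direction was in part fixed by the choice. With total covered length as a covariate the median was 0.698 percentage points in the domains and 0.876 over all regions. Then 29 domains had an unadjusted p under 0.05, and limma called 2 lower, where 1.46% of all regions were. Total covered length was 42.8 ± 6.78 Mb in Mki67-/- and 49.0 ± 6.66 Mb in WT pre-pro-B libraries (SD, n = 4 each). The parts of length and genotype cannot be told apart. When the domains were chosen from the other 2 stages, 0 were called in pre-pro-B, with 21 at an unadjusted p under 0.05, where 0.0906% of all regions were lower and 0.0151% higher. That fit held the pre-pro-B libraries alone and called a smaller share of all regions, so it cannot check the choice of domains. The count of 5 rested on single libraries. It was 2 without WT replicate 1, 109 without WT replicate 2, 3 without WT replicate 4, 17 without Mki67-/- replicate 1, 20 without Mki67-/- replicate 2 and 3 without Mki67-/- replicate 4, which was also the count without the 3 doubted libraries.

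Slc17a9, which encodes the transporter that loads nucleotides into vesicles, and Fam43a kept their calls in each of the 24 runs without 1 library. The Slc17a9 domain (chr2:180724916-180727189) had pre-pro-B values of 2195, 2102, 2086 and 2112 bp among WT libraries and of 1886, 1326, 1682 and 1202 bp among Mki67-/- libraries. The pro-B libraries of WT mice gave 959, 962, 765 and 943 bp, those of Mki67-/- mice 968, 909, 1002 and 964 bp. WT small pre-B libraries had 945, 945, 842 and 955 bp, Mki67-/- small pre-B libraries 840, 801, 826 and 972 bp. The pre-pro-B genotypes did not overlap, and all later libraries lay below both. The percent covered in pre-pro-B cells was 93.4 ± 2.14% in WT and 67.0 ± 13.9% in Mki67-/- libraries (SD, n = 4 each), a fall of 26.4 ± 4.90 percentage points (SE, adjusted p = 0.00298). The SE of this fall drew on the spread of all 6 groups, not on the pre-pro-B libraries alone. Without the 3 doubted libraries the difference was −21.7 (adjusted p = 0.0182), and in the 40000 strongest peaks −10.5 (adjusted p = 0.684).

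The Fam43a domain (chr16:30599335-30601885) had 1985, 1765, 2148 and 2133 covered bp in the 4 WT pre-pro-B libraries, against 1761, 1218, 858 and 987 in the 4 Mki67-/- ones. WT pro-B libraries followed with 1307, 1285, 1451 and 1342 bp, Mki67-/- pro-B libraries with 1565, 1261, 1543 and 1545 bp. For small pre-B libraries they were 1557, 1409, 1335 and 1870 bp (WT) and 1543, 1354, 1759 and 1645 bp (Mki67-/-). The highest Mki67-/- pre-pro-B library stood just under the lowest WT library, and at the later stages the genotypes overlapped. The percent covered in pre-pro-B cells was 78.7 ± 6.97% in WT and 47.3 ± 15.6% in Mki67-/- libraries (SD, n = 4 each), a fall of 31.4 ± 6.23 percentage points (SE, adjusted p = 0.00523). Here too, the SE drew on the spread of all 6 groups. Without the 3 doubted libraries the difference was −28.6 (adjusted p = 0.0413), and in the strongest peaks −10.3 (adjusted p = 0.556).

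The other 3 domains lost their call without some libraries. At Auts2, a component of a Polycomb complex (chr5:131537089-131539379), WT pre-pro-B libraries had 1653, 407, 1167 and 1464 covered bp and Mki67-/- ones 0, 155, 396 and 0. The genotypes did not overlap, with WT replicate 2 just above Mki67-/- replicate 3. The fall was 45.2 ± 10.3 percentage points (SE, adjusted p = 0.0141), and the adjusted p was 0.0585 without WT replicate 1 and 0.0536 without WT replicate 4. At Tox2, an HMG-box factor (chr2:163202395-163204528), the values were 2066, 1413, 1816 and 1878 bp among WT and 1490, 1438, 816 and 797 among Mki67-/- pre-pro-B libraries, which overlapped at WT replicate 2. The fall was 30.8 ± 7.19 (SE, adjusted p = 0.0164), with 0.0627 without WT replicate 1 and 0.0659 without Mki67-/- replicate 4. At Cdv3 (chr9:103364217-103366376) they were 1841, 954, 1759 and 2082 bp in WT and 994, 1299, 959 and 965 in Mki67-/- libraries, with WT replicate 2 the lowest of all 8. The fall was 28.0 ± 7.54 (SE, adjusted p = 0.0377), and it was lost in 6 of 24 runs, those without WT replicate 1, 3 or 4 or Mki67-/- replicate 1, 3 or 4, with an adjusted p of up to 0.146. In the strongest peaks the differences were 0 at Auts2, −34.75 at Tox2 (adjusted p = 0.109) and −10.2 at Cdv3 (adjusted p = 0.165). With total covered length as a covariate all 3 lost their call (adjusted p = 0.07785, 0.0827 and 0.198, in the same order). Without the 3 doubted libraries Auts2 kept it (adjusted p = 0.0380), and Tox2 (0.0988) and Cdv3 (0.132) did not.

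In pro-B cells a single domain was called, at Bbc3 (chr7:16308608-16311243), which encodes PUMA, an inducer of apoptosis. It was higher in Mki67-/- libraries, where 0.861% of all regions tested were higher and 0.589% lower. It was covered over 2636, 2155, 2118 and 2334 bp (WT) and 2456, 2160, 2070 and 2071 bp (Mki67-/-) in pre-pro-B libraries. At the pro-B stage WT libraries had 1329, 1125, 1128 and 1091 bp and Mki67-/- libraries 1618, 1512, 1588 and 1676. Small pre-B libraries covered 1445, 1358, 1491 and 1553 bp (WT) and 1658, 1506, 1522 and 1567 bp (Mki67-/-). Only the pro-B genotypes stood apart without overlap, at 44.3 ± 4.12% in WT and 60.6 ± 2.59% in Mki67-/- libraries (SD, n = 4 each). The difference was 16.3 ± 4.07 percentage points (SE, adjusted p = 0.0453). The call was lost in 17 of the 24 runs without 1 library, with an adjusted p of up to 0.126, and without the 3 doubted libraries (0.0648). Chosen from the other stages, 0 domains were called by limma in pro-B, with 31 at an unadjusted p under 0.05, where 0.111% of all regions were higher and 0.178% lower. This fit held the pro-B libraries alone and called a smaller share of all regions, so nothing is read from the 0.

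In small pre-B cells the call was Mfng alone, higher in Mki67-/- libraries, where 1.83% of all regions tested were higher and 0.968% lower. Its covered lengths are given above. The percent covered was 41.9 ± 7.09% among WT and 63.7 ± 3.27% among Mki67-/- small pre-B libraries (SD, n = 4 each), with no overlap. The difference was 21.8 ± 3.98 percentage points (SE, adjusted p = 0.00248), it kept its call in each of the 24 runs without 1 library, and it was 31.1 in the strongest peaks (adjusted p = 2.18e-06) and 19.4 without the 3 doubted libraries (adjusted p = 0.0154). The count in this stage was 4 without those libraries and 3 without WT replicate 4 or without Mki67-/- replicate 1, and 2 without WT pre-pro-B replicate 2. With domains chosen from the other stages it was 0 by limma, with 22 at an unadjusted p under 0.05, where 0.345% of all regions were higher and 0.145% lower. That fit, too, held only the libraries of its stage and called a smaller share of all regions.

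Whether the genotype effect differed between stages was tested directly. Between pro-B and pre-pro-B cells 2 domains passed, where 1.02% of all regions tested were higher and 0.224% lower. These were Fam43a with 36.6 ± 8.82 percentage points (SE, adjusted p = 0.0412) and Slc17a9 with 28.7 ± 6.94 (adjusted p = 0.0415). These calls were lost in 16 and 18 of the 24 runs without 1 library and without the 3 doubted libraries (adjusted p = 0.139 and 0.101), and with the replicate number as a block Slc17a9 lost its call (adjusted p = 0.0646). Without WT pre-pro-B replicate 2 the count was 34. Between small pre-B and pre-pro-B cells Mfng passed, with 24.8 ± 5.63 (SE, adjusted p = 0.0222), where 1.37% of all regions were higher and 0.327% lower. It was lost in 4 of 24 runs, those without WT pre-pro-B replicate 4, WT small pre-B replicate 1 or 2 or Mki67-/- small pre-B replicate 2, and without the 3 doubted libraries (adjusted p = 0.0881), and the count was 26 without WT pre-pro-B replicate 2. Between small pre-B and pro-B cells limma called 0 domains, with 11 at an unadjusted p under 0.05, where 0.541% of all regions were higher and 0.485% lower.

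**Figure D5:**
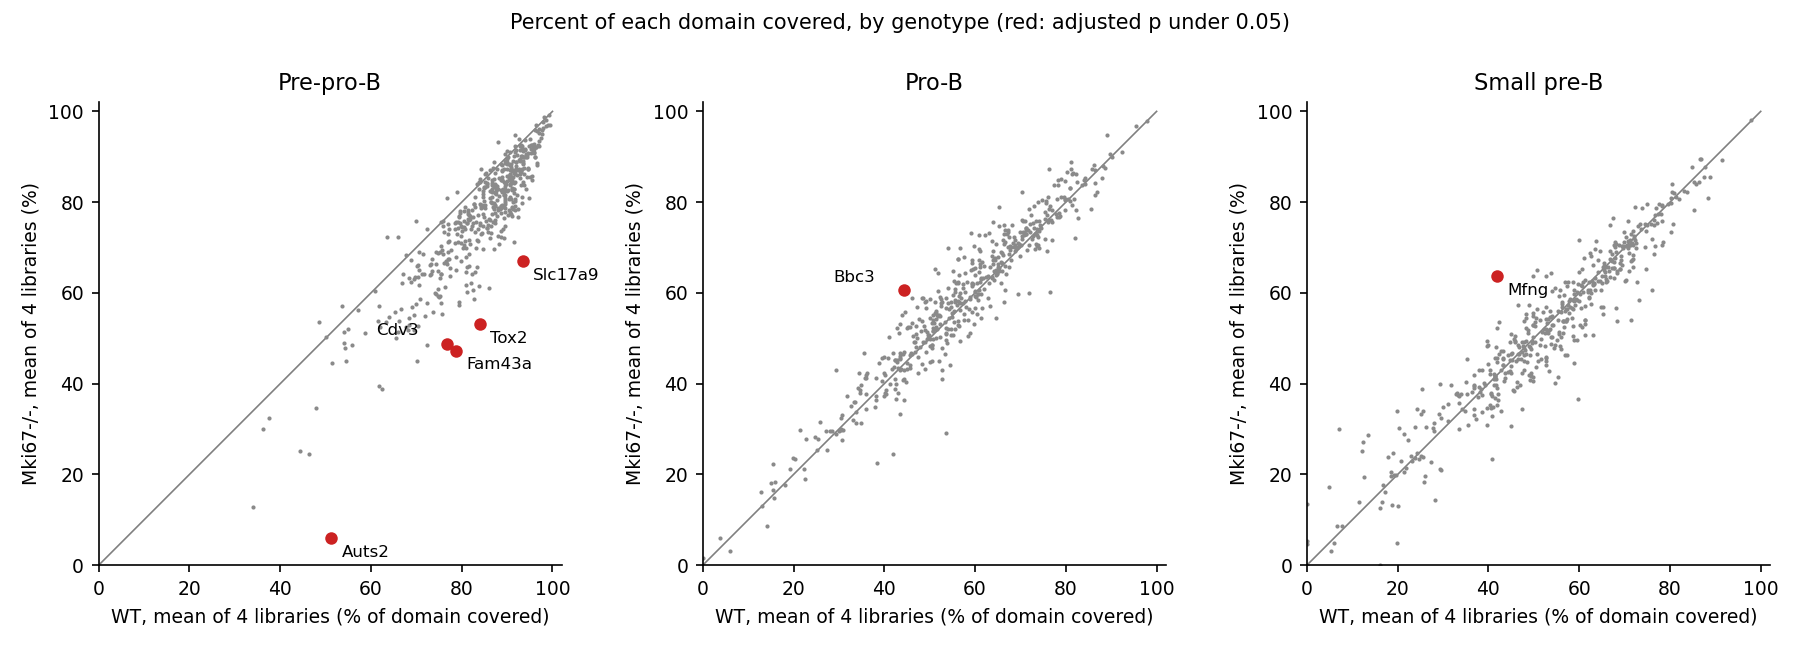
For each stage, points give the percent of each of the 500 domains covered in WT (x axis) and Mki67-/- libraries (y axis), as means of 4 libraries; red points passed limma at an adjusted p under 0.05, and the line is equality. In pre-pro-B cells most points lie under the line and 5 are red, while pro-B and small pre-B cells have 1 red point each, Bbc3 and Mfng.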

How the data were processed

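ATAC-seq libraries of 24 samples in 6 groups were used, each as its own peak list. The submitters' processing notes list Trimmomatic, MACS2, deepTools, DiffBind and DESeq2 without versions, and mm10 as the build. The aligner and read totals are not given in the sources used here. In the deposited lists the authors' score is 10 times the −log10 q, their fold enrichment (a ratio) compares a summit with its local background, and their −log10 p and −log10 q belong to the same summit. They served here only for ranks, filters and descriptions inside 1 list, and the lowest −log10 q was about 2, a q of 0.01. Background coverage was recovered from the deposited fold enrichment and p-value, as the most frequent value over the summits tried.

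The percent of each region covered by the merged peaks of a library was fitted with limma 3.58.1 (R 4.3.3, with trend and robust settings), with 1 mean per group and 24 libraries, over 107535 regions for genotype (deposited lists) and 59632 for stage (40000 strongest peaks), each with a peak in at least 4 libraries. Domains chosen from other stages or in the other genotype were fitted on the tested libraries alone. Adjusted p-values follow Benjamini and Hochberg over all regions tested, with a threshold of 0.05. The fit was tested on simulated data, where a single-stage genotype test missed most of the smaller changes and made false calls above the nominal rate. The test across stages missed most of the smallest changes, and at some sizes of change its false calls were also above that rate. Genotype counts are thus uncertain in both directions, in single stages and across them. Genes and start sites came from RefSeq on GRCm38.p6, with 21631 protein-coding genes, and all genes of the 10 lists matched by symbol. Of the 500 domains, each carries the name of the gene with an end inside it, else of the gene it lies in ("within"), else of the gene with the nearest end ("nearest").

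Named domains were the 10 widest, the 10 of greatest median covered length, those at the limit of the choice, up to 10 per comparison and direction in order of p, and up to 4 genes per list; the other signal-response and histone genes, Cxxc5, Bcor and Jade2 at later steps, and the gene of each printed promoter were named after their values were seen. Domains, lists and tests were chosen with earlier results of these data known. Alternatives were another scale, list, filter, threshold, covariate, number of domains and rule of width, the replicate number as a block, and each library left out in turn. Leaving out 3 doubted libraries was added after seeing the data. The replicate numbers of the labels did not pair the libraries: correlations of deviations between same-numbered libraries ran from −0.248 to 0.122 between genotypes and from −0.0280 to 0.0458 between stages.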

Additional observations from a re-analysis of the deposited data

Results flagged for a closer look

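Groups of 4 libraries were examined in the domains shown library by library and in measures of each library over all domains. Of 156 such groups, 14 had a library far from the others. Chance gives about 1 in 20 for independent groups, but these groups reuse the same libraries. In the Cdk6 domain, WT pre-pro-B replicate 2 was the low library with 3022 bp, next to 3706. In the Nr3c1 domain the same library was the low one with 2496 bp, next to 2837. The region nearest Esp38 stood out by a few bp in 3 groups, with a highest value of 3720 bp in WT pre-pro-B and lowest values of 3694 bp in Mki67-/- pro-B and 3694 bp in WT small pre-B libraries. In the Kdm6b domain the high libraries were Mki67-/- pre-pro-B replicate 2 with 3155 bp and WT small pre-B replicate 4 with 2357 bp. The latter library was also the high one in the Jun domain, with 1772 bp. In the Mfng domain Mki67-/- small pre-B replicate 2 was high with 1535 bp.

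Slc17a9 had a low library in WT pro-B, replicate 3 with 765 bp, and in WT small pre-B, replicate 3 with 842 bp. Fam43a had a low library in Mki67-/- pro-B, replicate 2 with 1261 bp. Cdv3 had a high library in Mki67-/- pre-pro-B, replicate 2 with 1299 bp, and Bbc3 in WT pro-B, replicate 1 with 1329 bp.

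In 3 domains the genotype effect differed between stages by limma's interaction test. The effect was 36.6 percentage points higher in pro-B than in pre-pro-B cells at Fam43a (adjusted p = 0.0412) and 28.7 at Slc17a9 (adjusted p = 0.0415, or 0.0646 with the replicate number as a block), and 24.8 higher in small pre-B than in pre-pro-B cells at Mfng (adjusted p = 0.0222).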

How the results depend on the processing

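Counts of domains called are given here as genotype across stages and at the first, second and last stage, then as genotype effect at the second against the first, the last against the first and the last against the second stage, where the report has 0, 5, 1, 1, 2, 1 and 0. The counts that moved were as follows, and the cause was not tested. On the log2 scale of covered bp plus 100 they were 3 across stages, 9 in small pre-B, and 6 and 2 for the last pair. In the strongest peaks they were 7, 16, 2, 7, 1, 7 and 3. With a peak in at least 12 libraries they were 0 in pro-B and 0 for the first stage difference. With total covered length as a covariate they were 3, 2, 2 and 7 by stage and 0 and 1 for the first and last stage differences. At a −log10 q of at least 10 they were 1 across stages, 0 in pro-B, 2 in small pre-B and 1 for the first stage difference. Without trend and robust settings the pro-B count was 0. For the 250 widest they were 2 in pre-pro-B, 0 in small pre-B, and 1 and 0 for the first pair of stage differences. For the 1000 widest they were 3, 15, 2, 4, 5, 2 and 1. By the width covered in at least 12 libraries they were 1 across stages, 3 in pro-B, 3 in small pre-B and 2 for small pre-B against pre-pro-B. With domains from the other 2 stages they were 0 in each stage, in fits of the libraries of that stage alone. Without the 3 doubted libraries they were 3 in pre-pro-B, 4 in small pre-B and 0 for the first stage difference. Without 1 library they ran from 0 to 12, 2 to 109, 0 to 1, 1 to 3, 0 to 34, 0 to 26 and 0 to 0.

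From pre-pro-B to pro-B the report has 36 higher and 351 lower. The covariate of the stage fits was the strongest-peak length. Higher were 11 in the deposited lists, 70 with the covariate and 9 at a −log10 q of at least 10. Also higher were 20 for the 250 and 60 for the 1000 widest, and 18 when chosen in Mki67-/- and tested in WT libraries. Lower were 64 with the covariate, 168 for the 250 and 711 for the 1000 widest. Without 1 library the counts ran from 33 to 40 and from 338 to 375. From pro-B to small pre-B, where it has 38 and 98, 22 were higher in the deposited lists, 25 without a filter, 96 with the covariate, 24 at a −log10 q of at least 10, 23 for the 250 and 79 for the 1000 widest and 13 when chosen in WT and tested in Mki67-/- libraries. Lower were 49 for the 250 and 181 for the 1000 widest and 48 and 64 in the domains chosen in the other genotype. Without 1 library they ran from 29 to 44 and from 84 to 108.

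As a share of total covered length, ratios were 1.053 for Mki67-/- over WT in pre-pro-B (0.9148 in kb), 1.085 for pro-B over pre-pro-B and 1.05 for small pre-B over pro-B. Without 1 library the ratios in kb ran from 0.8695 to 0.9576, 1.0 to 1.061 and 0.9637 to 1.025 for genotype at the 3 stages, and from 0.703 to 0.7334 and 0.8951 to 0.9208 for the steps. By the width covered in at least 12 libraries, 68.0% of domains held a gene end and 65.8% a start site.

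At the first step the deposited lists turned Plcd3 (−25.89), Ccdc160 (−0.7776), Chd4 (−7.45), Glis3 (−44.49), Pde4c (−12.19) and Plekha7 (−25.52), and a −log10 q of at least 10 turned Plcd3 (−18.62), Chd4 (−0.132), Glis3 (−28.56) and Plekha7 (−16.05). At the second step the deposited lists turned Dbndd2 (−1.156) and Tram1 (−4.555), and the stricter threshold Tram1 (−3.501).

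With the replicate number as a block, 5 domains were called by genotype in pre-pro-B, 36 were higher and 350 lower at the first step, and 35 higher and 93 lower at the second. The block ended the call of the stage difference at Slc17a9 (adjusted p = 0.0646) and no other named call. Of 50 named differences, 7 lost their call in at least 1 run without 1 library. Depth is known only through background coverage, which limits what a width or a call in a single library can show.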
